A study of Mus musculus with 6 samples.

Results

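The mitochondrial ribosomal protein genes were followed in tibialis anterior muscle, a mixed limb muscle, on 6 Affymetrix arrays. They are the genes whose symbol in the platform annotation starts with Mrpl or Mrps and a digit, taken from probe sets that carry that symbol alone. The rule found 85 probe sets for 77 genes among 19938 genes measured (35557 probe sets in all), and each gene was represented by its probe set with the highest mean over the 6 arrays. One further probe set, shared by Mrpl53 and Ccdc142, carries more than 1 symbol and was left out. The control group was 3 arrays of muscle from C57Bl6J mice, and the other group was 3 arrays of muscle from mice labelled MLC-SOCS-3/C57Bl6J, a name the labels do not spell out. All mice were 11 weeks old and had been starved for 6 h before the muscle was removed. No promoter, founder line or animal is named for any array. If the replicates are not separate animals, the spread behind each p-value is technical only. Values are log2 intensities after RMA, which corrects background, equalises the arrays and summarises the probes of a set. Each difference is the mean of the arrays labelled MLC-SOCS-3 minus the control mean on that scale, where folds of weak and very strong signals are compressed.

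Mitochondria keep their own ribosome, which translates the few proteins encoded in mitochondrial DNA, all of them core subunits of the respiratory chain and ATP synthase. Its RNAs come from mitochondrial DNA, but its proteins are encoded in the nucleus, made in the cytosol and imported. Some of these proteins have counterparts in the bacterial ribosome and others exist only in mitochondria. The large subunit joins amino acids and holds the exit tunnel, and the small subunit binds the messenger RNA and decodes it. Muscle relies on the respiratory chain for sustained work.

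By known structure, 50 of the 77 genes encode large subunit proteins and 26 small subunit proteins. Mrps30 and Mrps18a belong to the large subunit despite their symbols. Mrps36 is today assigned to the 2-oxoglutarate dehydrogenase complex, outside the ribosome, and was kept because the symbol rule includes it. The genes lie on 17 chromosomes, with 11 on chromosome 11 and 8 on chromosome 17.

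The starts of many of these genes lie back to back with the start of another gene. Promoter windows from RefSeq (GRCm38.p6, 250 bases before to 50 after a start) were held for 68 of the 77 genes. In 23 of the 68 (33.8%) another protein-coding gene on the opposite strand started within 1000 bases upstream, against 7.52% of 17492 protein-coding genes. The distance between the starts ran from 32 to 935 bases. The closest pair inside the family is Mrpl46 and Mrps11 on chromosome 7, whose starts are 42 bases apart. Mrps12 starts 147 bases from Sars2, the mitochondrial seryl-tRNA synthetase gene. Both stretches are shown because in each case 1 short sequence lies between the starts of a pair of genes of mitochondrial translation. Whether it drives both genes was not tested. The first lies at chr7:78783059-78783160 on the plus strand and the second at chr7:28741792-28741998 on the minus strand, and each runs from 30 bases inside the partner's transcript to 30 bases inside the named gene, with the bases between the starts in capitals.
Mrps11: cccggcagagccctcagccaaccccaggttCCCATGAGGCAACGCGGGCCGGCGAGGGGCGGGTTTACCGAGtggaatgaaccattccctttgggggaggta
Mrps12: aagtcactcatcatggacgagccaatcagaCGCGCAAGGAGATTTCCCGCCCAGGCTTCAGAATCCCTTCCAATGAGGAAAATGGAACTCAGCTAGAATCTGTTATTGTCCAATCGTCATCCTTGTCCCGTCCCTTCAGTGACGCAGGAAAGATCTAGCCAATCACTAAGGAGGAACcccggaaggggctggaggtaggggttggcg

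Letters of known promoter elements were searched in the same 68 windows on both strands. The ETS core CCGGAAG, bound by GABP among others, was found in 24 windows (35.3%), against 11.9% of all protein-coding promoters. AAGATGGC, the core of YY1 sites, was found in 12 (17.6%, against 3.22%), and an NRF1 site, GCGCA joined to its reverse complement, in 3 (4.41%, against 1.32%). In 35 windows (51.5%) at least 1 of these 3 was present, against 15.6% of protein-coding promoters. The GC box GGGCGG was found in 50% of the members' windows (46.3% of protein-coding promoters), CCAAT in 38.2% (39.0%) and TATAAA in 5.88% (13.3%). Each motif was searched on its own, so matches of different motifs may overlap, and a match is only a match of letters. The members' windows held a median of 21 CG steps, against 13 in all protein-coding windows (58.2% and 56.3% G or C). The ETS core and the NRF1 site contain CG, and the comparison was not matched for it. The windows of Mrpl47 and Mrpl22 are shown from 250 bases before to 30 after the start because these genes had the highest and the lowest difference in the family. Mrpl47 lies at chr3:32736726-32737005 on the minus strand and Mrpl22 at chr11:58171414-58171693 on the plus strand, with letters of a motif in capitals. The Mrpl47 stretch holds none of the 6 motifs and the Mrpl22 stretch holds the ETS core once. Over the 68 windows the median difference was 0.023 for the 24 genes with the ETS core and 0.035 for the 44 without it. A link between motif and difference was not tested.
Mrpl47: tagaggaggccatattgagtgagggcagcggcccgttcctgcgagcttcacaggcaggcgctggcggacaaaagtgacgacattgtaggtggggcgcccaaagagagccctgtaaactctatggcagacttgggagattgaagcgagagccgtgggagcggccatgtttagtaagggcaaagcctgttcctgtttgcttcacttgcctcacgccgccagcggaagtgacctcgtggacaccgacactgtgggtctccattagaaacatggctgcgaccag
Mrpl22: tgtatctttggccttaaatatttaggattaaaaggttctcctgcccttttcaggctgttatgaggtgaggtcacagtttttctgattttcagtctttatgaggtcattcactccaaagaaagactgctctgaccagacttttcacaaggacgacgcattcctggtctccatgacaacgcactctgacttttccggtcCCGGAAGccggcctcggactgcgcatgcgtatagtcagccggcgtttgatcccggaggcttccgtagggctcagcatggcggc

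**Figure D1:**
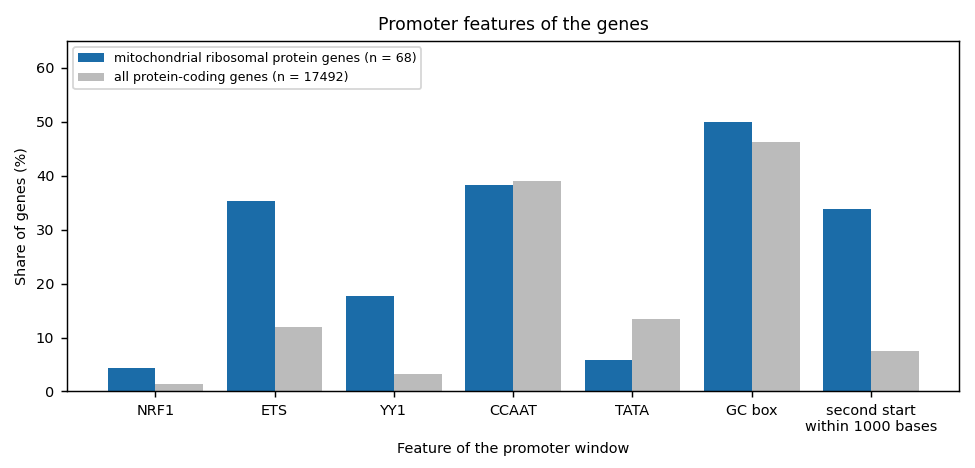
Share of genes, in percent, whose promoter window holds the letters of each motif or whose start has a second start on the opposite strand within 1000 bases upstream, for the mitochondrial ribosomal protein genes (blue, n = 68) and all protein-coding genes (grey, n = 17492). The ETS bars stand at 35.3% and 11.9%, and the bars for a second start at 33.8% and 7.52%.

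Array medians ranged from 5.98 to 6.04, and no further scaling was applied. Socs3, the gene in the name of the second group, read 7.37, 7.41 and 7.43 on control replicates 1, 2 and 3 and 7.07, 7.12 and 7.25 on the arrays labelled MLC-SOCS-3. It was thus not higher on the arrays that bear its name, and all 3 of them lay below the controls. The difference was -0.26 ± 0.07 (SE), with an unadjusted p of 0.011 and an adjusted p of 0.80 in limma. A dimmer probe set of Socs3 gave -0.22 ± 0.08 (limma, unadjusted p = 0.030, adjusted p = 0.82). Where the Socs3 probes lie in relation to any added copy is not given in the sources used here. Directions are therefore given for the arrays as labelled. The 7 markers of muscle fibres, among them Acta1 and Ckm, averaged 14.27 to 14.31 on all 6 arrays. In whole muscle, a lower level per fibre and fewer cells of a type cannot be told apart.

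All 77 genes lay above the median probe set of 5.99, with means over the 6 arrays from 7.07 for Mrpl33 to 11.74 for Mrps21 and a median of 9.19. These levels come from different probes and do not rank the genes by abundance. The genes were steady from array to array. The median range over the 6 arrays was 0.18, against 0.25 for the 11409 genes above the median probe set. In 48 genes the range was below 0.2, and in 3 (Mrpl22, Mrpl42 and Mrpl47) it was above 0.4. The median residual SD within groups was 0.066, against 0.089 for genes above the median probe set, whose median level was lower, 7.90. It was smaller still in nuclear-encoded respiratory chain subunits (0.049) and cytosolic ribosomal proteins (0.056), whose median levels were higher, 11.96 and 11.32. Low spread was thus not particular to the family.

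No mitochondrial ribosomal protein gene passed the test between the groups. Limma called 0 of 77 at an adjusted p under 0.05, as it called 0 of all 19938 genes (0%), and the smallest adjusted p in the family was 0.83. At an unadjusted p under 0.05 there was 1 higher gene, Mrpl47, and no lower gene. At that level 4.86% of all genes were called, 1.36% higher and 3.5% lower, and 3.64% of genes above the median probe set, 1.39% higher and 2.24% lower. The largest difference was 0.24, a 1.18-fold difference, and 62 of the 77 differences were smaller than 0.1 in size. The 95% interval of every member lay within a 1.5-fold change either way. In 51 of the 77 it lay within 1.2-fold, while in none did it lie within 1.1-fold.

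**Figure D2:**
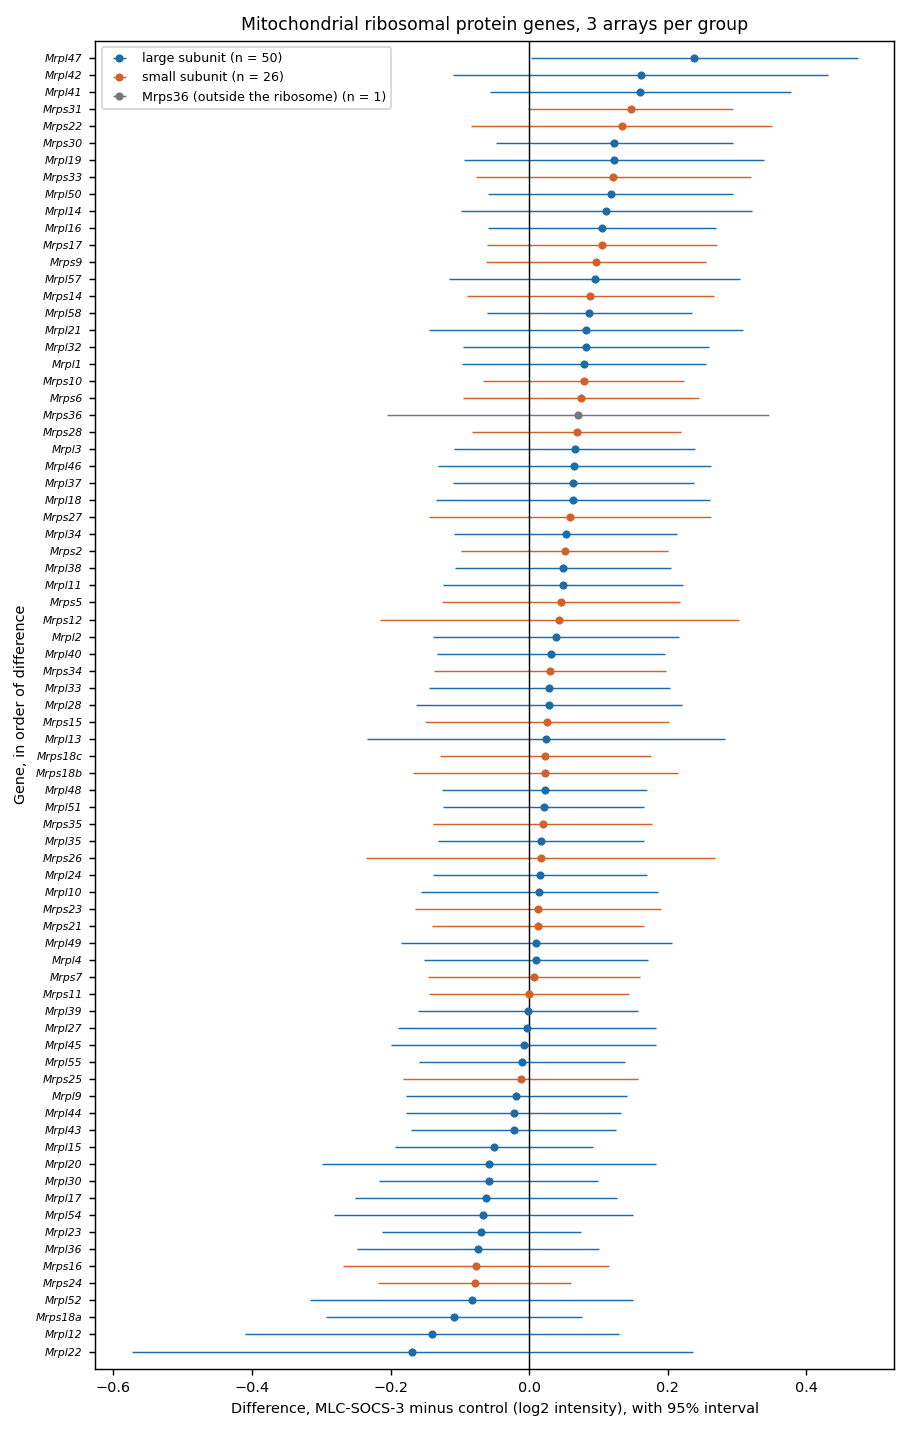
Difference in log2 intensity (MLC-SOCS-3 minus control, 3 arrays per group) of each of the 77 genes, in order of the difference, with limma's 95% interval, coloured by ribosomal subunit. The differences run from -0.17 for Mrpl22 to 0.24 for Mrpl47, and only the interval of Mrpl47 lies wholly on one side of 0.

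The family leaned slightly to the positive side. Its median difference was 0.029, with 55 genes positive and 22 negative, while the median of all genes was -0.016 with 43.8% positive. Among genes above the median probe set the median was 0.0011 with 50.5% positive. Those genes share a lower limit of signal with the family but have a lower median level, 7.90. With each array centred on its median, the family's median was 0.048 with 62 positive and that of all genes 0.0035 with 51.2% positive. Genes above the median probe set were then at 0.020 with 59.4% positive. With quantile normalization the family was at 0.017 with 51 positive and all genes at -0.016 with 43.7% positive. The genes above the median probe set were then at -0.0044 with 47.9% positive. The 26 small subunit genes had a median of 0.037 with 22 positive, and the 50 large subunit genes one of 0.023 with 32 positive. The 30 large subunit genes with a bacterial counterpart ran from -0.17 to 0.24 (19 positive), and the 20 without one from -0.11 to 0.16 (13 positive). For the small subunit, the 16 genes with a counterpart ran from -0.079 to 0.10 (13 positive) and the 10 without one from -0.012 to 0.15 (9 positive). No test was made of these medians, since the members share arrays.

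The lean was smaller without control replicate 2. Each gene's deviation from its own mean was taken on each array. The median deviation of the family was 0.022, -0.062 and 0.0044 on control replicates 1, 2 and 3, and 0.017, 0.024 and 0.020 on MLC-SOCS-3 replicates 1, 2 and 3. Control replicate 2 alone stood low, and the other 2 control arrays lay within or just below the range of the MLC-SOCS-3 arrays. It was the lowest of the 6 arrays for 36 of the 77 genes (46.8%), against 23.5% of genes above the median probe set. Control replicate 1 was the highest array for 23 genes, or 29.9%, and control replicate 2 for 3, or 3.90%. Among genes above the median probe set these shares were 22.8% and 12.9%, so control replicate 1 was the most frequent highest array there too. Without control replicate 2 the family's median difference was 0.0071 with 43 genes positive (55.8%). The median of all genes was then -0.022 with 41.8% positive, so the family's median lay 0.029 above it, against 0.045 with all 6 arrays. Genes above the median probe set lay closer to the family. Their median without control replicate 2 was -0.0080 with 46.4% positive (0.0011 and 50.5% with all 6 arrays). Respiratory chain subunits encoded in the nucleus behaved alike on that array, with a median deviation of -0.046, and control replicate 2 was lowest for 53.2% of those 77 genes. Cytosolic ribosomal proteins did not, with a median deviation of 0.024 there, and it was lowest for 3.70% of those 54 genes. The muscle fibre markers averaged 14.31, 14.29 and 14.30 on control replicates 1, 2 and 3 and 14.29, 14.31 and 14.27 on the MLC-SOCS-3 arrays. Control replicate 2 was thus the lowest control for them. Their signals are very strong, where folds are compressed, and the part of fibre content was not tested.

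**Figure D3:**
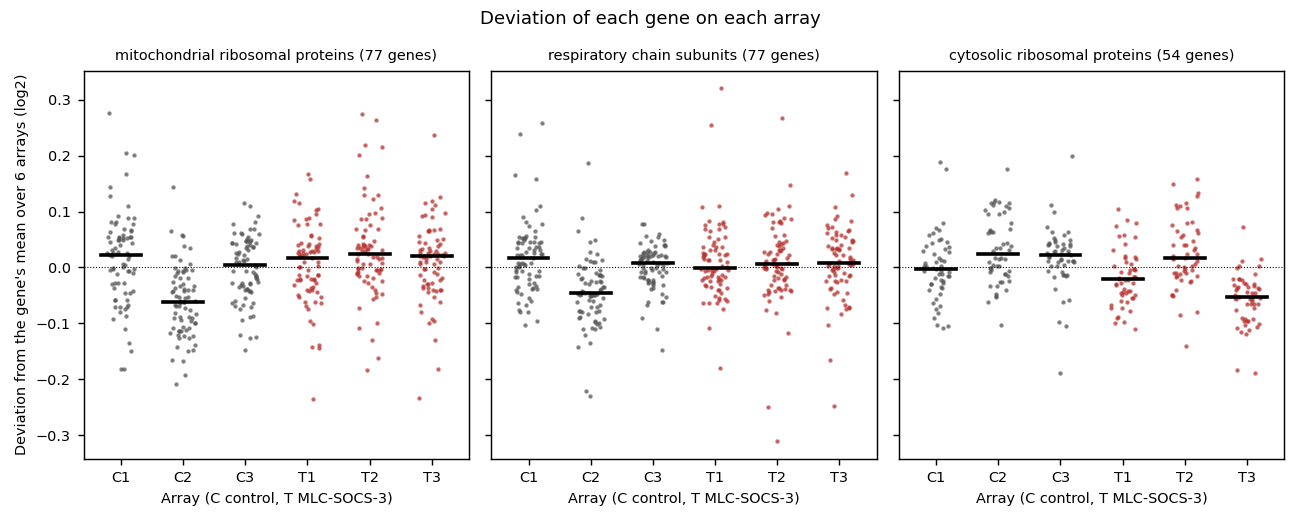
Deviation of each gene from its own mean over the 6 arrays (log2) on each array (C1 to C3 control, T1 to T3 MLC-SOCS-3) for mitochondrial ribosomal proteins, nuclear-encoded respiratory chain subunits and cytosolic ribosomal proteins, with the median of each array as a black bar. The bar of control replicate 2 stands at -0.062 in the left panel, -0.046 in the middle and 0.024 in the right.

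Of the large subunit genes, Mrpl47 had the highest difference. It encodes a counterpart of a bacterial protein at the exit of the peptide tunnel. Its level was 8.09, 7.89 and 7.95 on control replicates 1, 2 and 3 and 8.07, 8.23 and 8.33 on MLC-SOCS-3 replicates 1, 2 and 3. MLC-SOCS-3 replicate 1 lay below control replicate 1, so the groups overlapped. The difference was 0.24 ± 0.10 (SE; 95% interval 0.0021 to 0.47), with an unadjusted p of 0.049 and an adjusted p of 0.83 in limma. A dimmer probe set of the gene gave -0.053 ± 0.09.

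Mrpl42, a protein found only in mitochondrial ribosomes, read 10.09, 10.16 and 10.32 in controls and 10.21, 10.53 and 10.31 on the MLC-SOCS-3 arrays. MLC-SOCS-3 replicate 2 stood high, and the other 2 lay within the control range. Its difference was 0.16 ± 0.11 (SE), and 0.069 without MLC-SOCS-3 replicate 2. Mrpl41 had a difference of the same size, 0.16 ± 0.09, and its dimmer probe set gave 0.19 ± 0.06 (unadjusted p = 0.024, limma adjusted p = 0.81).

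Mrps30, a large subunit protein in spite of its symbol, read 7.54, 7.61 and 7.69 in controls and 7.79, 7.70 and 7.72 on the MLC-SOCS-3 arrays. Its groups did not overlap, by a margin of 0.011, and the difference was 0.12 ± 0.07 (SE; adjusted p = 0.86). Mrpl58, a peptidyl-tRNA hydrolase built into the large subunit that frees stalled ribosomes, read 9.12, 9.15 and 9.17 on the control arrays and 9.28, 9.21 and 9.21 on the MLC-SOCS-3 arrays. Here too the groups stood apart, by 0.033, with a difference of 0.087 ± 0.06. Mrpl50 and Mrpl16, the latter a counterpart of a bacterial protein near the transfer RNA sites, were at 0.12 ± 0.07 and 0.11 ± 0.07, with overlapping groups.

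The lowest differences in the family also belonged to the large subunit. Mrpl22, whose bacterial counterpart lines the exit tunnel, had the widest range of all members, 0.51. It read 7.91, 7.49 and 7.75 in controls and 7.40, 7.85 and 7.40 on the MLC-SOCS-3 arrays. Low and high arrays occurred in both groups, and the difference was -0.17 ± 0.17 (SE). It was -0.073 without control replicate 1 and -0.32 without MLC-SOCS-3 replicate 2. Mrpl12 forms the stalk that recruits translation factors and is also known to bind the mitochondrial RNA polymerase. Its level was 10.11, 9.94 and 9.87 in controls and 9.76, 9.72 and 10.02 on the MLC-SOCS-3 arrays. MLC-SOCS-3 replicate 3 lay among the controls, and the difference was -0.14 ± 0.11 (adjusted p = 0.87). It was -0.23 without that array and -0.073 without control replicate 1.

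Mrpl23, a counterpart of a bacterial tunnel exit protein, read 10.97, 10.90 and 10.95 in controls and 10.87, 10.88 and 10.87 on the MLC-SOCS-3 arrays. All 3 of the latter lay below the controls, by 0.021, and the difference was -0.069 ± 0.06 (SE). The other probe set of Mrpl23 gave -0.080 ± 0.06. Mrpl36 and Mrpl30, both with bacterial counterparts, were at -0.074 ± 0.07 and -0.058 ± 0.06, with overlapping groups.

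Of the small subunit genes, Mrps31, which has no bacterial counterpart, had the highest difference and the widest gap between groups in the whole family. It read 9.01, 8.95 and 8.98 on control replicates 1, 2 and 3 and 9.08, 9.14 and 9.16 on the MLC-SOCS-3 arrays. The lowest MLC-SOCS-3 array lay 0.074 above the highest control. The difference was 0.15 ± 0.06 (SE; 95% interval -0.0017 to 0.29), a 1.11-fold difference with an unadjusted p of 0.052 and an adjusted p of 0.83 in limma. Mrps10 was steady in controls (8.11, 8.12 and 8.12) and read 8.23, 8.15 and 8.20 on the MLC-SOCS-3 arrays, a difference of 0.079 ± 0.06. Mrps17, an RNA-binding protein, and Mrps22, a mitochondrion-specific protein linked to human mitochondrial disease, were at 0.10 ± 0.07 and 0.13 ± 0.09. The groups of Mrps17 stood apart by 0.013 and those of Mrps22 overlapped.

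Mrps24, whose bacterial counterpart sits at the entry of the messenger RNA channel, ran the other way. It read 8.81, 8.84 and 8.82 in controls and 8.75, 8.73 and 8.75 on the MLC-SOCS-3 arrays, so all 3 were lower, by at least 0.057. The difference was -0.079 ± 0.06 (SE; adjusted p = 0.87). Mrps16 was at -0.077 ± 0.08, with overlapping groups. Over the family, the groups did not overlap in 7 genes that were higher (9.09%, against 4.52% of all genes and 6.02% of genes above the median probe set) and in 3 that were lower (3.90%, against 7.76% and 6.46%). The 7 were Mrps31, Mrpl58, Mrps10, Mrps28, Mrps17, Mrps30 and Mrps9, and the 3 were Mrps24, Mrpl23 and Mrpl15. With each array centred on its median, 12 were higher (15.6%, against 6.33% of all genes and 8.47% of genes above the median probe set). Lower without overlap was then 1 gene (1.30%, against 5.99% and 4.65%).

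**Figure D4:**
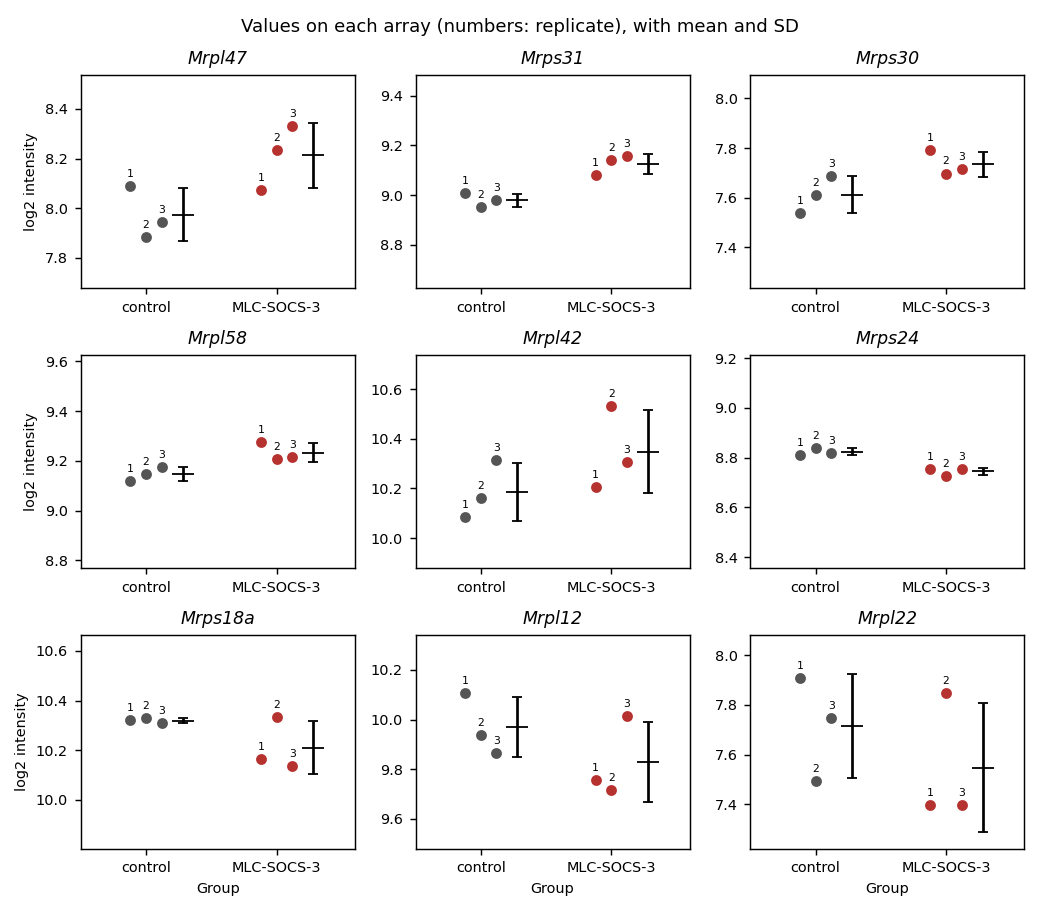
Log2 intensity on each array (points, numbered by replicate) with the group mean and SD (n = 3) for 9 genes, each panel spanning the same height. Mrps31, Mrps30 and Mrpl58 are higher and Mrps24 is lower on all 3 MLC-SOCS-3 arrays, while the groups of the other 5 genes overlap.

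The 3 Mrps18 paralogues occupy different places in the ribosome, Mrps18a in the large subunit and Mrps18b and Mrps18c in the small one. Mrps18a read 10.32, 10.33 and 10.31 in controls and 10.16, 10.33 and 10.14 on the MLC-SOCS-3 arrays. MLC-SOCS-3 replicates 1 and 3 were lower and replicate 2 was level with the controls, for a difference of -0.11 ± 0.08 (SE). Mrps18b (0.023 ± 0.08) and Mrps18c (0.023 ± 0.06) were close to 0. None of the 3 passed the test (adjusted p of 0.87, 0.98 and 0.97 in limma).

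Neither Mrps11 nor Mrpl46, the back-to-back pair shown above, passed the test. Mrps11 had the smallest range of all 77 genes, 0.064, and had group means of 7.08 ± 0.03 (control) and 7.08 ± 0.02 (MLC-SOCS-3; SD over n = 3 arrays each). Mrpl46 was at 0.065 ± 0.08 (SE). Mrps12, a protein of the decoding centre, read 7.95, 7.73 and 7.83 in controls and 7.97, 7.70 and 7.97 on the MLC-SOCS-3 arrays, at 0.043 ± 0.11, and its neighbour Sars2 was at 0.0067 ± 0.06. Of the 20 measured neighbours from outside the family that start back to back with a member, none passed the test. Their differences ran from -0.067 for Gga3 to 0.13 for Ncapd2, and 10 of the 20 had the same sign as the member. Ndufb5, a complex I subunit gene that starts 308 bases from Mrpl47, was at 0.020 ± 0.06, and Psma2, a proteasome subunit gene beside Mrpl32, at 0.090 ± 0.07. By the probe set used for each gene, Mrpl51 and Mrpl48 were, after Mrps11, the steadiest, with ranges of 0.068 and 0.076. The dimmer probe set of Mrpl51 was not steady, with a range of 0.42.

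For 8 genes there were 2 probe sets. Their differences had opposite signs for Mrpl47, Mrpl27 (-0.0036 ± 0.08 for the brighter and 0.12 ± 0.07 for the dimmer) and Mrps5 (0.046 ± 0.07 and -0.033 ± 0.06, SE). Mrpl23, Mrpl41, Mrpl51, Mrps33 and Mrps36 gave the same sign with both. The annotation gives both Mrpl23 probe sets the same RefSeq transcripts, so which of the 2 reports the gene alone was not tested.

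The genes that build and serve the mitochondrial ribosome were also not called, with 0 of each list at an adjusted p under 0.05. Of 4 measured ribosomal proteins with other symbols, Gadd45gip1 was at 0.13 ± 0.09 (SE), Ptcd3 at 0.11 ± 0.08, Chchd1 at 0.038 ± 0.10 and Dap3 at -0.014 ± 0.07. The 16 translation factors had a median of 0.057 with 11 positive (68.75%). Of all genes 43.8% were positive, and of genes above the median probe set 50.5%. For 56.25% of these factors control replicate 2 was the lowest array, against 23.5% of genes above the median probe set. Of the factors, the release factor gene Mtrf1l was at 0.18 ± 0.10, the translation GTPase gene Guf1 at 0.13 ± 0.08 and the formyltransferase gene Mtfmt at 0.11 ± 0.08. The 21 aminoacyl-tRNA synthetases, which charge the mitochondrial transfer RNAs, had a median of 0.068 with 16 positive (76.2%). For 47.6% of these synthetases control replicate 2 was the lowest array. At an unadjusted p under 0.05 in limma there was 1 synthetase gene, against 4.86% of all genes (1.36% higher and 3.5% lower). That gene, Nars2, read 7.27, 7.29 and 7.28 in controls and 7.46, 7.44 and 7.43 on the MLC-SOCS-3 arrays, at 0.16 ± 0.06 (unadjusted p = 0.029, limma adjusted p = 0.83). Its groups stood apart by 0.14, while those of Fars2 (0.18 ± 0.09) and Yars2 (0.14 ± 0.08) overlapped.

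The 29 assembly and RNA maturation factors had a median of 0.025 with 20 positive (69.0%). For 55.2% of these factors control replicate 2 was the lowest array. Eral1, a chaperone of the small subunit's RNA, read 8.33, 8.24 and 8.37 in controls and 8.43, 8.46 and 8.52 on the MLC-SOCS-3 arrays, at 0.16 ± 0.07 (SE). Mtg1, a GTPase of large subunit assembly, was at 0.12 ± 0.07 and Afg3l2, a protease that matures a ribosomal protein, at 0.10 ± 0.07. The 18 regulators of mitochondrial transcription and biogenesis had a median of 0.054 with 12 positive (66.7%). For 33.3% of these regulators control replicate 2 was the lowest array. Tfam, which packages mitochondrial DNA, was at 0.17 ± 0.08, and Tefm, an elongation factor of its transcription, at 0.092 ± 0.09. Ppargc1a, the coactivator known for driving mitochondrial biogenesis, read 9.55, 9.34 and 9.15 in controls and 9.50, 9.50 and 10.41 on the MLC-SOCS-3 arrays. Only MLC-SOCS-3 replicate 3 stood high, and the difference was 0.46 ± 0.27 (adjusted p = 0.86).

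The respiratory chain subunits and the cytosolic ribosomal proteins were set beside the family on the same arrays. The 77 respiratory chain subunits had a median of 0.018 with 50 positive. Among them Ndufa12 was at -0.30 ± 0.09 (SE), Cox6a1 at 0.18 ± 0.07 and Ndufc2 at 0.16 ± 0.06, each at an unadjusted p under 0.05 and none after adjustment. In that list 2 genes were higher and 1 lower at that level, against 1.36% and 3.5% of all genes. The 54 cytosolic ribosomal proteins had a median of -0.032 with 10 positive, against 55 of 77 positive in the mitochondrial family, and MLC-SOCS-3 replicate 3 had their lowest median deviation (-0.053). Rpl41, Rpl27 and Rps20 were at -0.14 ± 0.07, -0.12 ± 0.06 and -0.11 ± 0.06. Both ribosomal families lay within small differences of 0, and the difference between their medians was not tested.

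**Figure D5:**
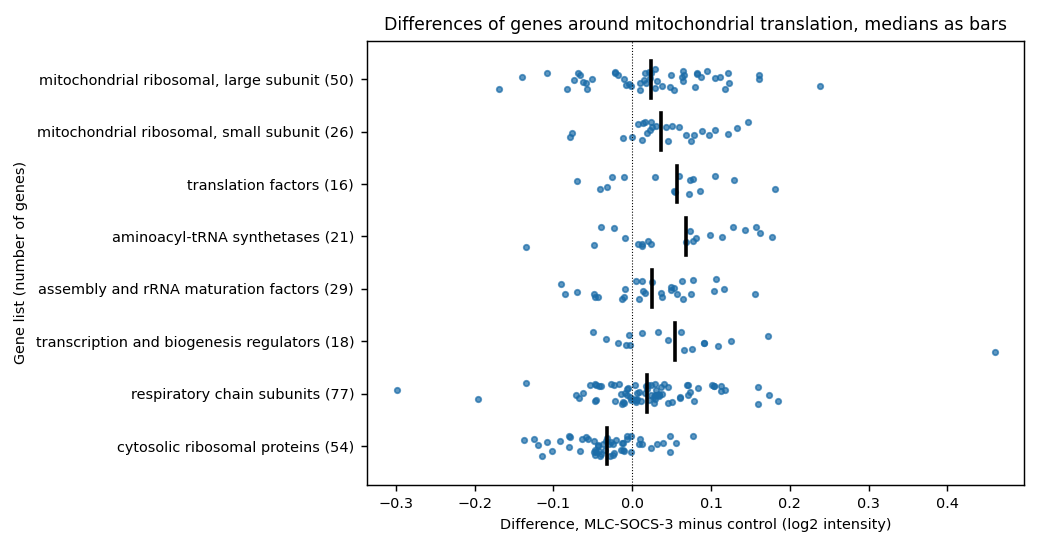
Difference in log2 intensity (MLC-SOCS-3 minus control) of each gene of the mitochondrial ribosome, of the lists that serve it and of the 2 comparison families, with the median of each list as a bar. The medians run from -0.032 for cytosolic ribosomal proteins to 0.068 for aminoacyl-tRNA synthetases, and the point at 0.46 is Ppargc1a.

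Several marker lists of other cells had larger median differences than the family, and no marker passed the adjusted test. The medians were -0.28 for tendon, 0.21 for adipocytes, -0.15 for slow fibres and 0.13 for fibroblasts. The 5 tendon markers averaged 7.47 to 7.62 in controls and 7.31 to 7.34 on the MLC-SOCS-3 arrays, and the 5 slow fibre markers 6.72 to 6.86 and 6.53 to 6.69. The 5 adipocyte markers averaged 6.50 to 6.63 and 6.76 to 6.93, and the 6 fibroblast markers 10.29 to 10.37 and 10.32 to 10.69. The 6 macrophage markers averaged 6.87 to 7.15 and 6.91 to 7.34, the 5 endothelial markers 8.67 to 8.86 and 8.68 to 8.78, and the 3 Schwann cell markers 7.51 to 7.55 and 7.35 to 7.53. The averages of the tendon and slow fibre lists were lower, and that of the adipocyte list higher, on all 3 MLC-SOCS-3 arrays than on any control. Gene by gene, the groups stood apart in that direction for 2 of 5 tendon, 1 of 5 slow fibre and 1 of 5 adipocyte markers. Over all genes the groups stood apart in 7.76% with lower and in 4.52% with higher MLC-SOCS-3 values. No test was made of these counts. The part of the markers' cell types in the differences of the mitochondrial ribosomal protein genes was not tested.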

How the data were processed

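RNA of 6 muscle samples was hybridised to 1 array each (300 ng of total RNA per labelling, per the labels' protocols). The deposited values are log2 intensities. Per the submitters' processing notes the authors ran Affymetrix Expression Console with RMA, and neither version is given in the sources used here. The method brings the arrays to a common distribution, so a shift shared by most genes would be removed. No counts exist, and the number of arrays limits precision. At most 36 of 35557 values were identical between any pair of arrays.

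Of the 35557 probe sets, 21789 had 1 gene symbol, 1621 several and 12147 were unlisted. All were fitted with limma 3.58.1 in R 4.3.3 (lmFit, eBayes, two-sided), with Benjamini-Hochberg adjustment over all probe sets and a threshold of 0.05. Errors are moderated standard errors. The script was tested on simulated data. The members, lists, motifs and tests were chosen with earlier results of these data known. Named were the 8 members per direction with the smallest p, those with a difference above 0.25, the 4 with the largest gap between groups, the 3 steadiest and the 3 most variable, those whose probe sets differed in sign, those next to one another or within 25 genes of the Nup37 to Apaf1 stretch of chromosome 10, 5 of known role and up to 3 genes of each other list. Members named only in a list of non-overlapping genes, or as a highest or lowest level or as a neighbour in the genome, were chosen after their values were seen. Same-numbered arrays did not deviate together (correlations of -0.043 to -0.018), so no replicate block was used.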

Additional observations from a re-analysis of the deposited data

How the results depend on the processing

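In all 14 alternative settings, 0 members passed at an adjusted p under 0.05, and over the 28 named members the adjusted p was at least 0.72. Of these, 20 kept their direction in every setting, but several settings could not change a direction. Testing 1 probe set per gene, keeping probe sets above the median level, the replicate block, and trend and robust moderation leave every difference unchanged. Centring moves all differences by the same amount. The mean and the dimmer probe set can change only genes with 2 probe sets. At an unadjusted p under 0.05 there were 2 higher members with 1 probe set per gene tested, with arrays centred on their medians, with the mean of a gene's probe sets, on probe sets above the median level, and with trend and robust moderation. The share of all genes at that level was counted only for the main fit (1.36% higher, 3.5% lower). These counts therefore have no background of their own. There were 0 with quantile normalization and 0 with the replicate block, under which the median difference stays at 0.029 by construction. The replicate numbers stand in the sample titles, which do not say whether same-numbered samples were handled together. With centring, 12 members did not overlap with higher and 1 with lower values (all genes 6.33% and 5.99%, genes above the median probe set 8.47% and 4.65%). The family's median was then 0.048 (0.017 with quantile normalization). Leaving out 1 array at a time gave 0 to 1 higher and 0 lower members at an unadjusted p under 0.05, 9 to 20 non-overlapping higher (20 without control replicate 1, 18 without control replicate 3 and 14 without MLC-SOCS-3 replicate 1) and 3 to 7 lower members (7 without replicate 2 of either group, 5 without MLC-SOCS-3 replicate 1 or 3), and medians of 0.0071 to 0.047 (large subunit 0.0040 to 0.039, small subunit 0.016 to 0.051). Groups of 2 against 3 overlap less often by construction, and over all genes 7.91% to 9.74% were then higher and 11.4% to 15.7% lower without overlap. Among genes above the median probe set these shares were 9.73% to 13.0% and 9.55% to 13.4%. The 8 members with a change of sign were Mrps11 (0.019 with centring, 0.0019 with quantile normalization), Mrpl27 (0.016 with centring, 0.060 with the mean of probe sets and 0.12 with the dimmer probe set), Mrpl47 (-0.053 with the dimmer probe set), Mrps5 (-0.033 likewise), and, only when an array was left out, Mrps12 (-0.0087 to 0.14), Mrps18b (-0.020 to 0.068), Mrps18c (-0.0046 to 0.047) and Mrpl46 (-0.0013 to 0.11). With an array left out Mrps11 ran from -0.013 to 0.019 and Mrpl27 from -0.054 to 0.035. The cause was not tested.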
